A study of Sus scrofa with 6 samples.

Results

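The nuclear genes of the respiratory chain and the ATP synthase were followed in the left ventricular (LV) free wall of piglets after doxorubicin (Dox), an anthracycline used against cancer that damages the heart. Members were the probe sets with 1 gene symbol beginning with NDUF, UQCR, COX4 to COX8 or ATP5, together with the 4 SDH subunit genes, CYC1 and CYCS. The rule found 81 probe sets for 64 genes, out of 6765 genes with such a probe set on the array, and used no measured difference. Where a gene had several probe sets, the one with the highest mean log2 signal over the 6 arrays stood for it. By complex, the members were 32 genes of complex I, 4 of complex II, 2 of complex III, 8 of complex IV, 13 of complex V and CYCS, which encodes cytochrome c. The other 4 were not structural subunits, namely the complex I assembly factors NDUFAF1, NDUFAF2 and NDUFAF3, and ATP5S, a coupling factor. NDUFA4 carries a complex I name but was counted with complex IV, where its protein is now assigned. No probe set of the rule was named for CYC1.

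Total RNA from 6 Large White piglets was hybridized to 6 Affymetrix porcine arrays, 3 for PBS-injected animals (PBS 1 to 3) and 3 for Dox-injected animals (Dox 1 to 3). By the labels, each piglet was 8 days old when it received 1 intravenous injection of PBS or of Dox at 2.0 mg/kg, and tissue was taken 3 weeks later at 28 days of age. The methods of the study give a dose range and slightly different ages. A single dose and time point were sampled, and the tissue was whole free wall, so that fewer cells of a type and less RNA per cell cannot be told apart.

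The respiratory chain lies in the inner mitochondrial membrane. Complex I and complex II pass electrons from NADH and succinate to ubiquinone, complex III hands them to cytochrome c, and complex IV passes them on to oxygen, while complexes I, III and IV pump protons out of the matrix. The ATP synthase, complex V, uses the returning protons to make ATP, and heart muscle depends on it for most of its contraction and ion pumping. Most subunits are encoded in the nucleus, and a small set of core subunits is encoded in mitochondrial DNA.

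The deposited value of a probe set is its MAS5 signal, an intensity on a linear scale, and differences are given as log2 of Dox over PBS, from a limma fit over all 23999 probe sets that are not array controls. Every member was measured above the highest control sequence without a pig target on every array, and member signals ran from 14.9 to 8835. All 64 lay above the median brightness of the array and 59 lay in its top decile. The 11 ventricular cardiomyocyte markers with a probe set had a summed signal of 51529 to 62225 on PBS arrays and 62986 to 81920 on Dox arrays. Of them, 10 had a positive difference and RYR2 had -0.29. The median difference of the 11 was 0.30, as was that of all 352 probe sets with a mean log2 signal of at least 11. The 4 skeletal muscle markers summed to 9.2 to 29.8. Fibroblast markers went the other way, at 2476 to 3386 on PBS arrays and 1021 to 2262 on Dox arrays over 6 genes. The sum of 6 endothelial markers was also lower, at 1330.1 to 2003 on PBS arrays and 1145 to 1278 on Dox arrays. Of these 6, 5 had a negative difference and VWF had 0.15. The 3 neutrophil markers summed to 12.3 to 31.1 and 69.8 to 802.7. The part of this tissue make-up in the differences below was not tested. The Dox arrays also differed in brightness, with median signals of 13.5 to 15.6 against 16.8 to 17.8 and highest signals of 10463 to 13684 against 8345 to 9426. The 3′ to 5′ ratio of EF1a, a measure of RNA quality, was 11.6 on Dox 1 against 4.24 to 4.86 elsewhere. For GAPDH it was 1.55 and 2.93 on Dox 1 against 1.155 to 1.28 and 1.18 to 1.68. For actin it was 6.04 against 1.96 to 3.96 at a pair of probe sets. At another actin pair it was 76.9 against 29.6 to 120.6, so that Dox 1 did not stand apart there. Dox 3 correlated least with the other arrays, at 0.897 to 0.916.

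None of the 64 genes changed by the threshold of the study, which asks for a fold of 2 or more and an adjusted p no higher than 0.05. Nor did any of the 23999 probe sets, so that 0.0% were called, and the smallest adjusted p was 0.428 (limma, Benjamini-Hochberg adjustment). By an unadjusted p up to 0.05, 2 members were higher in Dox, COX5B and ATP5G2, and 0 were lower, where 3.62% of all probe sets were higher and 5.92% lower. All 3 Dox arrays lay above all 3 PBS arrays for 9 members, 14.1% of the 64 against 6.19% of all probe sets. They lay below for 4 members, 6.25% against 10.1%. Most members are bright, and bright probe sets often lay above. With a mean log2 signal of at least 11, the Dox arrays lay above for 8 of 43 members and for 182 of all 352 probe sets. They lay below for 1 of those 43 and 6 of those 352. The counts of members turned with the scaling between arrays. After quantile normalization 2 members had all Dox arrays above PBS and 20 below, and after cyclic loess 3 and 14, while by unadjusted p 0 members were higher under both and 7 and 8 were lower. The shares of all probe sets under these 2 scalings are not given, so these counts cannot be read as particular to the members.

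The differences were small. The median over the 64 genes was 0.07 on the log2 scale, with 41 genes above 0 and 23 below, and single genes ran from -0.62 for NDUFAF1 to 0.55 for NDUFV3. Over all probe sets the median was -0.10. The members' median minus that of all probe sets was 0.17 as deposited, -0.12 after quantile normalization and -0.08 after cyclic loess, so that its direction turned. The 95% interval of the difference stayed within 2-fold in both directions for 61 of the 64 genes, compared with 6288 of 23999 probe sets. The 3 exceptions were NDUFV3, NDUFAF1 and NDUFAF2, named after their values were seen. The standard error of a member had a median of 0.15, against 0.46 over all probe sets, and the spread within groups was a median SD of 0.14 on the log2 scale against 0.54. Bright probe sets of any kind were tight: among those with a mean log2 signal of at least 11, the median standard error was 0.15 for 43 members and 0.16 for all 352, the median SD was 0.13 and 0.17, and 317 of the 352 intervals stayed within 2-fold.

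**Figure D1:**
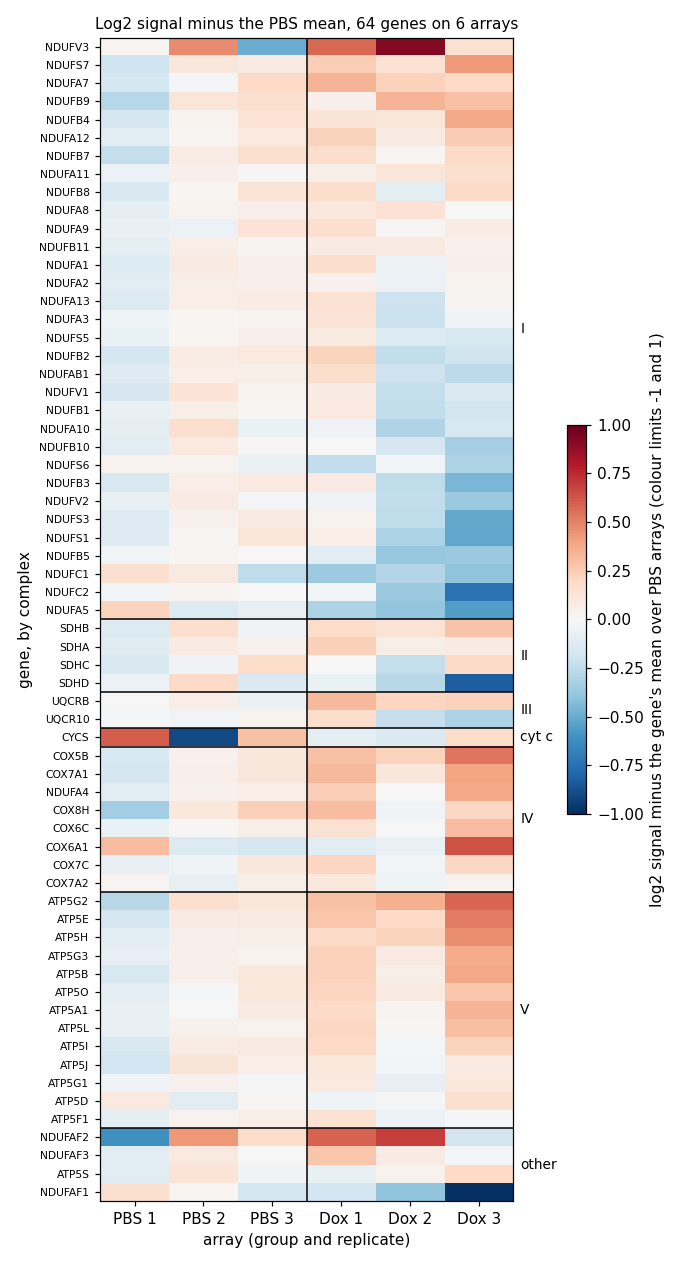
Log2 signal of the 64 genes (rows, by complex) on the 6 arrays (columns), shown as the difference from the gene's mean over the PBS arrays, with colour limits at -1 and 1. The complex V rows are red on Dox 3 and pale on Dox 2, and many complex I rows turn blue on Dox 2 and Dox 3 but not on Dox 1.

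The signs of the differences varied between complexes. The median difference was -0.05 for complex I, with 14 genes above 0 and 18 below, 0.05 for complex II with 2 and 2, and 0.07 for the 2 genes of complex III with 1 and 1. At the brightest probe set of each gene, all 8 genes of complex IV and all 13 of complex V had a positive difference. Their medians were 0.16 and 0.18. Positive differences were also usual among bright probe sets, at 296 of the 352 with a mean log2 signal of at least 11 and 140 of the 143 with at least 12. The largest in complex V was 0.41, equal to 1.33-fold. Under quantile and cyclic loess normalization the medians of complexes IV and V were below 0, as described with the comparison of the complexes.

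**Figure D2:**
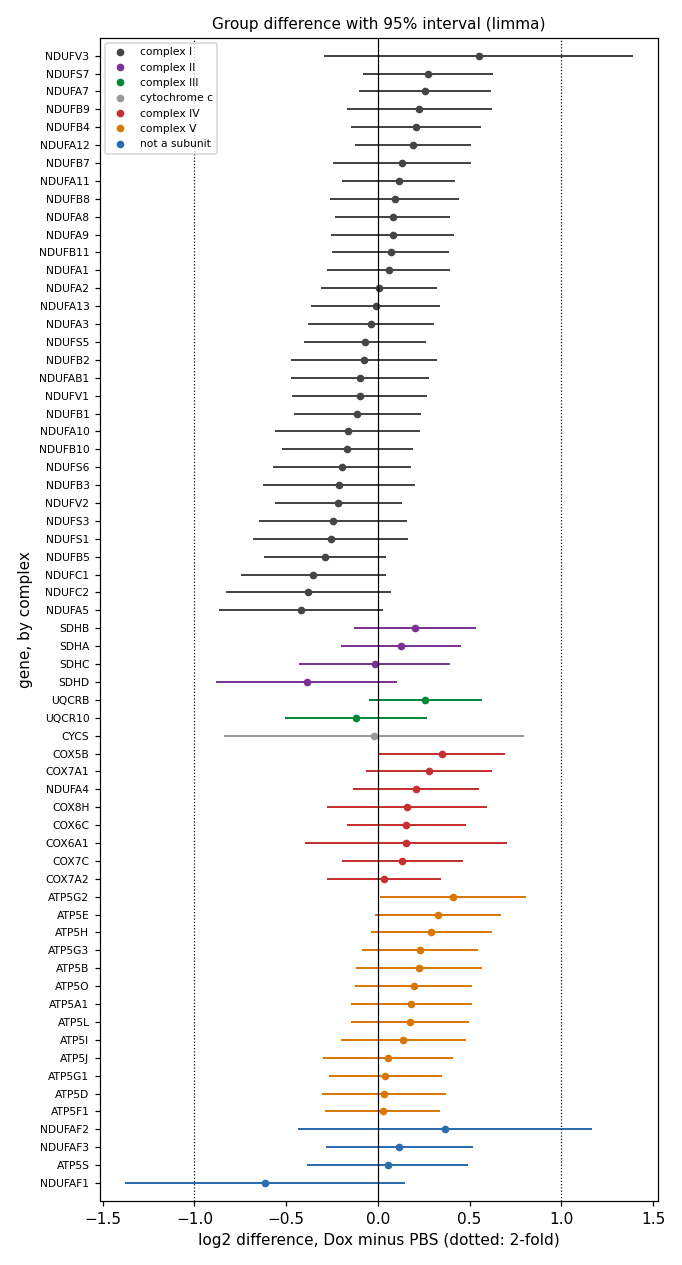
Log2 difference, Dox minus PBS, of each of the 64 genes with its 95% interval from limma, by complex, with dotted lines at 2-fold. The points of complexes IV and V all lie right of 0, those of complex I lie on both sides, and the intervals of 61 genes stay between the dotted lines.

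Complex I oxidises NADH and is the largest complex of the chain. It is built of core subunits, some of which carry the flavin and the iron-sulfur clusters, and of many accessory subunits around them. The most negative difference of a structural subunit was found here. NDUFA5, an accessory subunit of the arm that reduces ubiquinone, had signals of 306, 239 and 249 on the PBS arrays and 213, 199.9 and 179 on the Dox arrays. Every Dox array lay below every PBS array, and the difference was -0.42 ± 0.20 (log2, SE, n = 3 per group; limma, adjusted p = 0.533). NDUFC1, an accessory subunit of the membrane arm, had signals of 934, 888 and 702 in PBS and 649, 682 and 631 in Dox. Its Dox arrays lay close together and below the lowest PBS array, PBS 3, with a difference of -0.35 ± 0.17 (limma, adjusted p = 0.545).

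NDUFB5, also of the membrane arm, gave 2604, 2694 and 2663 in PBS and 2449, 2036 and 2056 in Dox. The groups did not overlap, Dox 1 was nearest to the PBS arrays, and the difference was -0.29 ± 0.15 (limma, adjusted p = 0.551). NDUFC2, a partner of NDUFC1 in the membrane arm, gave 1815, 1879.8 and 1852 in PBS and 1816, 1427 and 1107 in Dox. Here Dox 1 lay among the PBS arrays while Dox 2 and Dox 3 lay far below them, and the difference of -0.38 ± 0.20 became -0.20 without Dox 3. At the other end, NDUFV3, a small accessory subunit of the NADH-oxidising part, had the highest difference of all members, 0.55 ± 0.37. It was also the dimmest member, at 21.4, 29.3 and 14.9 in PBS and 31.3, 39.9 and 23.4 in Dox, and its groups overlapped.

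The 3 complex I genes with every Dox array above every PBS array were NDUFS7, NDUFA7 and NDUFA11, named after their values were seen. NDUFS7, which holds the last iron-sulfur cluster before ubiquinone, gave 3010.4, 3742 and 3681 in PBS and 4112, 3836 and 4648 in Dox, a difference of 0.27 ± 0.16. NDUFA7, an accessory subunit of the matrix arm, gave 1471, 1635 and 1900.4 in PBS and 2103, 1942 and 1904 in Dox, with PBS 3 and Dox 3 nearly equal and a difference of 0.26 ± 0.16. NDUFA11, of the membrane arm, gave 2454, 2653 and 2577 and 2671, 2783 and 2864, the smallest difference of the 3 at 0.11 ± 0.14. The exact two-sided permutation test gave p = 0.1 for each, as for every member whose groups did not overlap, and that is the smallest p that 3 arrays against 3 allow.

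The 5 core subunits of complex I with a probe set, a split made after the values were seen, had a median of -0.22, with NDUFS7 above 0 and the other 4 below, and the 27 accessory subunits a median of -0.01 with 13 above and 14 below. NDUFV1 binds the flavin and NADH, and its difference was -0.10 ± 0.16. NDUFV2, its iron-sulfur partner, had -0.22 ± 0.15, and NDUFS1, the large iron-sulfur subunit, had -0.26 ± 0.19 with 2300.0, 2546 and 2737 in PBS and 2640.0, 2027 and 1755 in Dox. NDUFS3, a core subunit next to the ubiquinone site, had -0.25 ± 0.18 with 2125, 2394 and 2448 in PBS and 2369, 1944 and 1624 in Dox. In NDUFS1 and NDUFS3 alike, Dox 1 lay inside the PBS range and Dox 3 was lowest, and the groups of all 4 genes overlapped. Without Dox 3 their differences were -0.12 and -0.11.

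Dox 1 stood apart from the other Dox arrays for complex I. It was the highest of the 3 Dox arrays for 20 of the 32 complex I genes, a count given without its share over all probe sets. Without Dox 1, the complex I median was -0.14 in place of -0.05, while it was 0.02 without Dox 2 and -0.02 without Dox 3. The members with all Dox arrays below PBS numbered 17 in place of 4 without Dox 1, and 5 members in place of 0 were lower by an unadjusted p up to 0.05. Leaving out an array can only keep or raise a count of groups without overlap. Shares over all probe sets without Dox 1 are not given, so the rise cannot be read as particular to the members. No member passed the study's threshold without Dox 1, although 14 probe sets elsewhere on the array did.

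**Figure D3:**
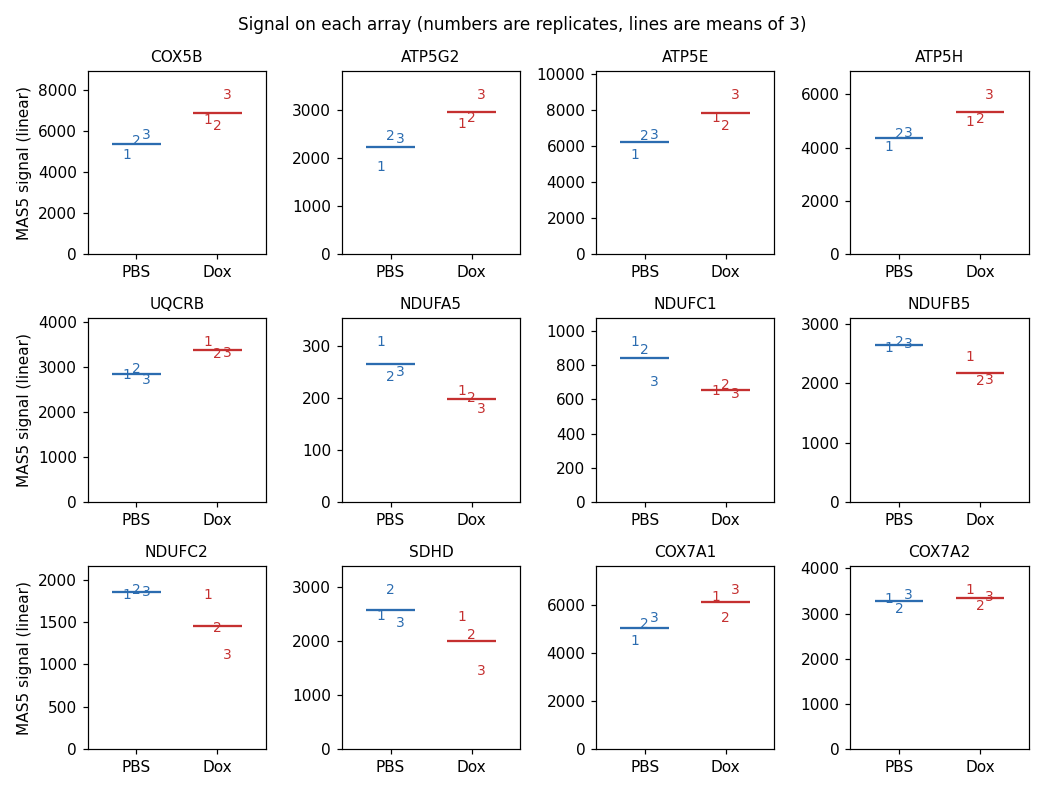
MAS5 signal (linear scale from 0) of 12 genes on each array, with the replicate number as the symbol, PBS in blue and Dox in red, and a line at the mean of 3. In COX5B, ATP5G2, ATP5E, ATP5H and UQCRB all Dox arrays lie above all PBS arrays, in NDUFA5, NDUFC1 and NDUFB5 all lie below, and in NDUFC2, SDHD, COX7A1 and COX7A2 the groups overlap.

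Complex II is both the succinate dehydrogenase of the citric acid cycle and an entry point to the chain, and all 4 of its subunits are nuclear. SDHA, the flavoprotein, gave 2692, 3103 and 3020.1 in PBS and 3464, 3053 and 3108 in Dox, and SDHB, the iron-sulfur subunit, gave 2675, 3296 and 2872 and 3333, 3236 and 3580.4. The groups overlapped in both, with differences of 0.13 ± 0.14 and 0.20 ± 0.15. The 2 membrane anchors did not have positive differences. SDHC gave 837, 907 and 1055 in PBS and 927, 786 and 1059.5 in Dox, a difference of -0.02 ± 0.18. SDHD gave 2470.1, 2951 and 2328 in PBS and 2453, 2123 and 1455 in Dox, where Dox 3 alone was far below the other arrays. Its difference of -0.39 ± 0.22 (limma, adjusted p = 0.577) became -0.17 without Dox 3.

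Complex III was covered by 2 small subunits of the complex. UQCRB, a subunit near the ubiquinone site, gave 2821, 2959.7 and 2701 in PBS and 3543, 3284 and 3309 in Dox. The groups did not overlap, with a difference of 0.26 ± 0.13 (limma, adjusted p = 0.562) that was 0.04 after quantile normalization and 0.06 after cyclic loess. UQCR10 gave 2456, 2434 and 2539 in PBS and 2799.5, 2112 and 2002 in Dox, where Dox 1 was the highest and Dox 3 the lowest of all arrays, and its difference was -0.12 ± 0.17. CYCS, the gene of the mobile carrier between complexes III and IV, had the widest spread within groups of all members. Its signals were 728, 257 and 587 in PBS and 446, 433 and 545 in Dox, so that PBS 1 and PBS 2 enclosed all Dox arrays, and the difference of -0.02 had a 95% interval from -0.84 to 0.80.

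Complex IV, cytochrome c oxidase, is built around core subunits from mitochondrial DNA, and the nuclear subunits surround them. COX5B, a zinc-binding subunit on the matrix side, gave 4816, 5514 and 5804 in PBS and 6559, 6262 and 7766 in Dox. Dox 3 was highest and the lowest Dox array stood above the highest PBS array, a difference of 0.35 ± 0.15, equal to 1.27-fold (limma, adjusted p = 0.522). In the other 7 genes the groups overlapped, and differences ran from 0.03 to 0.28. NDUFA4 gave 5371, 5968 and 6043 in PBS and 6861, 5761 and 7510.1 in Dox, and COX6C gave 3955, 4180.4 and 4309.9 and 4605, 4164 and 5127. In both, Dox 2 was the array that lay within the PBS range, and their differences were 0.21 ± 0.15 and 0.15 ± 0.14. The difference of COX5B was 0.01 after quantile normalization and 0.07 after cyclic loess.

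Subunit VIIa has a heart and muscle isoform, COX7A1, and a widely expressed isoform, COX7A2. COX7A1 gave 4483, 5223 and 5456 in PBS and 6317, 5454 and 6633 in Dox, a difference of 0.28 ± 0.15, and only Dox 2 reached into the PBS range. COX7A2 gave 3309.9, 3096 and 3415 and 3525, 3174 and 3354, a difference of 0.03 ± 0.14 with the groups mixed. The within-array ratio of COX7A1 to COX7A2 was thus higher in Dox by 0.25 on the log2 scale, with a 95% interval from -0.07 to 0.56 (exact permutation p = 0.1, 0.133 after Benjamini-Hochberg adjustment over the 4 isoform pairs compared). The ratio lay higher on every Dox array than on any PBS array as deposited, but after quantile normalization the groups overlapped, with a difference of 0.17 and exact permutation p = 0.2. Without PBS 1 the deposited difference was 0.15.

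Complex V makes ATP in its F1 head, turned by a ring of c subunits in the membrane. Of the head, ATP5A1 and ATP5B, the alpha and catalytic beta subunits, had differences of 0.18 ± 0.14 and 0.22 ± 0.15. ATP5E, the epsilon subunit of the central stalk, gave 5516, 6559.8 and 6621 in PBS and 7520.3, 7115 and 8835 in Dox, and its groups did not overlap. Its difference was 0.33 ± 0.15, equal to 1.25-fold (limma, adjusted p = 0.533), and was -0.03 after quantile normalization and 0.04 after cyclic loess. ATP5D, the delta subunit of the same stalk, had only 0.03 ± 0.15.

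Of the outer stalk, ATP5H, the d subunit, gave 4010.4, 4512 and 4537 in PBS and 4956, 5079.5 and 5985 in Dox. All Dox arrays lay above all PBS arrays and Dox 3 was highest, a difference of 0.29 ± 0.14 (limma, adjusted p = 0.546) that was 0.003 after quantile normalization and 0.04 after cyclic loess. ATP5F1, the b subunit, gave 4451, 4839.5 and 4916 in PBS and 5252, 4553 and 4671 in Dox with the groups mixed, a difference of 0.03 ± 0.14 that was the lowest in complex V. ATP5O, at the top of the stalk, had 0.19 ± 0.14.

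The c ring comes from ATP5G1, ATP5G2 and ATP5G3, which encode the same mature protein behind different import peptides. ATP5G2 gave 1823, 2472 and 2404 in PBS and 2704, 2833 and 3319.7 in Dox. PBS 1 was low, Dox 3 was high, and the difference was the largest of complexes II to V at 0.41 ± 0.17, equal to 1.33-fold (limma, adjusted p = 0.521), and 0.21 and 0.23 after quantile and cyclic loess normalization. ATP5G3 gave 5459, 5979.5 and 5933 in PBS and 6774, 6149 and 7497 in Dox without overlap, a difference of 0.23 ± 0.14. ATP5G1 gave 4397, 4631 and 4458 and 4821, 4239.9 and 4839 with the groups overlapping, a difference of 0.04 ± 0.13.

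Within arrays, ATP5G1 was lower in Dox relative to ATP5G3 by 0.19 on the log2 scale (95% interval -0.33 to -0.05) and relative to ATP5G2 by 0.37 (-0.80 to 0.06). Both ratios lay lower on every Dox array than on any PBS array, with exact permutation p = 0.1 and 0.133 after adjustment over the 4 pairs. The ratio of ATP5G2 to ATP5G3 differed by 0.18 (-0.14 to 0.50) with overlap, at exact permutation p = 0.3. It was 0.08 without PBS 1, and 0.32 without overlap after quantile normalization, at exact permutation p = 0.1. Without PBS 1 the ratio of ATP5G1 to ATP5G2 differed by -0.25. An interval that includes 0 here does not show that the 2 genes of a pair responded alike.

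**Figure D4:**
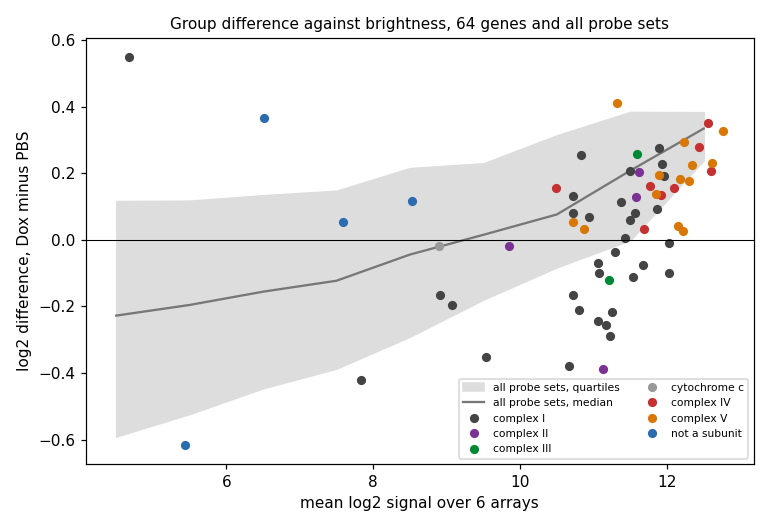
Log2 difference, Dox minus PBS, against mean log2 signal for the 64 genes, coloured by complex, with the median and quartiles of all probe sets in steps of 1 log2 unit in grey. The grey median climbs from -0.23 at the dim end to 0.33 at the bright end, and the 43 members with a mean log2 signal of at least 11 had a median of 0.13, against 0.30 for all probe sets that bright.

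Brightness moved with these differences. Under the scaling of the authors the median difference of all probe sets was -0.23 for those with a mean log2 signal from 4 to 5 and 0.33 for those from 12 to 13. The hybridization spikes, which are added at fixed amounts, were also higher on Dox arrays, with a mean log2 signal of 9.45 to 9.59 on PBS arrays and 9.79 to 10.27 on Dox arrays. These are means over 18 spike probe sets, whose single signals are not given, so the spikes were not matched in brightness to other probe sets. All probe sets with a mean log2 signal from 9 to 10 had a median difference of 0.01. The spikes of the labelling step overlapped between groups, at 7.31 to 7.85 on PBS arrays and 7.56 to 7.63 on Dox arrays. The 43 members with a mean log2 signal of at least 11 had a median difference of 0.13, and the 352 probe sets of that brightness had 0.30. All Dox arrays lay above all PBS arrays for 8 of those 43 members and for 182 of those 352 probe sets. By these medians the members lay above the array as a whole and below probe sets of like brightness under the deposited scaling, and below the array as a whole after quantile and cyclic loess normalization.

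Complexes IV and V were also the brighter ones, with a median of the mean log2 signal of 12.01 and 12.18 against 11.20 for complex I, a quantity that mixes abundance with how well a probe set binds. Among members with a mean log2 signal from 11 to 12, a band chosen after the values were seen, the median difference was -0.02 for 18 genes of complex I, 0.13 for 3 of complex IV and 0.19 for 3 of complex V, and it was 0.13 for 3 genes of complex II and 0.07 for 2 of complex III. All probe sets of that band had a median of 0.21.

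**Figure D5:**
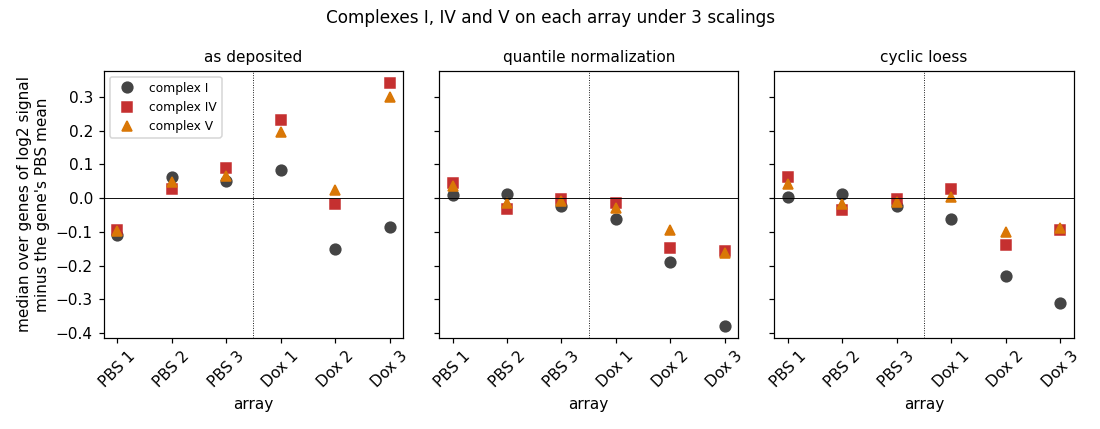
Median over the genes of complexes I, IV and V of the log2 signal minus the gene's PBS mean, on each array, with the deposited scaling, quantile normalization and cyclic loess normalization. Complex I lies lowest of the 3 on each Dox array in each panel, while the height of all 3 on the Dox arrays depends on the scaling.

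The sign of the complex medians depended on the scaling, whereas complex I lay below complexes IV and V under each scaling run. With quantile normalization the medians were -0.22 for complex I, -0.10 for complex IV and -0.10 for complex V, and with cyclic loess normalization they were -0.21, -0.06 and -0.06. Per array, the complex V median minus the complex I median was 0.01, -0.01 and 0.01 on the PBS arrays and 0.11, 0.17 and 0.39 on the Dox arrays as deposited. It ran from -0.03 to 0.03 on PBS and from 0.03 to 0.22 on Dox after quantile normalization, and from -0.03 to 0.04 and from 0.06 to 0.22 after cyclic loess. The complex IV median minus the complex I median was -0.04 to 0.04 on PBS and 0.13 to 0.43 on Dox as deposited, -0.05 to 0.04 and 0.04 to 0.22 after quantile normalization, where the groups were nearly in contact, and -0.05 to 0.06 and 0.09 to 0.22 after cyclic loess. Each of these gaps was widest on Dox 3. The comparison of complexes was chosen after the values were seen, genes of a complex are not replicates, and it was given no test.

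Dox 3 was the highest Dox array for 16 of the 21 genes of complexes IV and V, and PBS 1 was the lowest PBS array for 18 of them. This was not particular to these complexes. The summed signal of the ventricular cardiomyocyte markers was also lowest on PBS 1, at 51529, and highest on Dox 3, at 81920. The highest signal of an array was likewise lowest on PBS 1, at 8345, and highest on Dox 3, at 13684. With array weights, which gave Dox 3 the lowest weight, the medians were 0.06 for complex IV, 0.07 for complex V, -0.06 for complex II and 0.01 over all members. Without Dox 3 the medians were 0.11 for complex IV and 0.11 for complex V, and without Dox 2 they were 0.26 and 0.25. The members with all Dox arrays above PBS numbered 24 without Dox 2 and 17 without PBS 3, against 9 with all arrays. Such a count cannot fall when an array is left out, and the shares over all probe sets are not given.

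Several members were read by more than 1 probe set. The 14 such genes had 17 further probe sets, of which 4 were mostly within the range of the control sequences, and of the other 13, from 10 genes, 7 had the sign of the brightest one. NDUFS3 was negative at all 3 of its probe sets, and 1 of them gave 550.3, 608 and 479.6 in PBS and 416, 229 and 193 in Dox. There the difference was -1.04 ± 0.29 (limma, adjusted p = 0.521). NDUFB3, an accessory subunit, was negative at both, with -0.21 ± 0.18 and -0.37 ± 0.18. NDUFA1 had 0.06 ± 0.15 at the brightest probe set and -2.11 ± 0.53 at a dim one that may also match other transcripts by its suffix, with signals of 4.4 to 46.2. SDHA and SDHB had negative differences, -0.15 ± 0.30 and -0.34 ± 0.28, at their dimmer probe sets, and the complex II median was -0.04 when all probe sets of a gene were averaged. ATP5L of complex V had 0.18 ± 0.14 at its brightest probe set. It had -0.16 ± 0.31 at another with signals of 74.3 to 163.1, and 0.25 ± 0.47 at a dim one with 5.2 to 10.6.

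The 4 members that are not subunits were dimmer than most. NDUFAF1, which helps assemble the membrane arm of complex I, gave 59.6, 54.0 and 47.3 in PBS and 46.7, 40.5 and 22.4 in Dox, without overlap. Its difference of -0.62 ± 0.33 was the lowest of all members and became -0.30 without Dox 3. NDUFAF2, NDUFAF3 and ATP5S had positive differences of 0.37 ± 0.35, 0.12 ± 0.18 and 0.05 ± 0.19 with overlapping groups.

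Beyond the members, 14 of 49 listed assembly factors of the 5 complexes had a probe set, the NDUFAF genes above among them. Their median was -0.20, with 4 above 0 and 10 below, and 1 was lower and 0 were higher by an unadjusted p up to 0.05. Over all probe sets the median was -0.10 with 13706 of 23999 below 0, and 5.92% were lower and 3.62% higher by that p. The assembly factors were dimmer than most subunits. All probe sets with a mean log2 signal from 5 to 6 had a median of -0.20, and those from 8 to 9 had -0.04. The assembly factor lower by that p was LYRM7, which matures the iron-sulfur subunit of complex III. It gave 11.8, 7.4 and 8.7 in PBS and 4.9, 3.1 and 2.4 in Dox, where the Dox signals were within the range of the control sequences. ATPAF1, an assembly factor of the F1 head, gave 478, 508 and 485 in PBS and 486, 327 and 178 in Dox. Dox 1 lay inside the PBS range and the groups overlapped, and the difference of -0.68 ± 0.33 became -0.30 without Dox 3. None of the 13 subunits encoded in mitochondrial DNA had a named probe set, so that both genomes could not be compared.

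Of 20 listed electron donors and inner membrane carriers, 17 had a probe set, with a median of 0.13, 11 above 0 and 6 below. By an unadjusted p up to 0.05, 2 were higher and 2 lower, where 3.62% of all probe sets were higher and 5.92% lower. The list mixed dim genes such as UCP3 with bright ones such as SLC25A4. All probe sets with a mean log2 signal from 11 to 12 had a median of 0.21, and those from 12 to 13 had 0.33. The median of 0.13 therefore cannot be read as particular to this list. SLC25A6, an ADP/ATP carrier, gave 3466, 3346 and 3417 in PBS and 3859, 4691 and 5915 in Dox. Its groups did not overlap, with a difference of 0.48 ± 0.18 (limma, adjusted p = 0.521). NNT, the proton-driven transhydrogenase that makes NADPH, gave 444, 474 and 402 in PBS and 331, 319 and 339.5 in Dox. All Dox arrays lay below all PBS arrays, a difference of -0.41 ± 0.17 (limma, adjusted p = 0.521). SQOR, which feeds electrons from sulfide to ubiquinone, had -1.42 ± 0.59 with overlapping groups, and -0.74 without Dox 3.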

How the data were processed

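Affymetrix Porcine Genome Arrays, 6 in all, measured LV free wall RNA, 1 for each of 3 piglets given Dox and 3 given PBS, and samples were grouped by their labels. The deposited values are intensities, MAS5 signals on a linear scale that the authors computed with default settings in GCOS, named at version 1.4 in the submitters' processing notes. The scaling of the authors was kept. Array precision is limited by their number.

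Signals of 0 were raised to 0.1 and log2 was taken. In R 4.3.3, limma 3.58.1 (lmFit, and eBayes with an intensity trend, 4.50 prior degrees of freedom) fitted Dox against PBS over 23999 probe sets without covariates, after 124 array controls were left out, with Benjamini-Hochberg adjustment over all of them. Genes were named from the platform annotation, which gave 1 symbol for 10069 probe sets, several for 198 and none for 13732. Symbols were kept as given there, and some are older names. Probe sets of several symbols, 4 of which match the rule in part, were not used. The range of the control sequences is the highest Tag probe set of an array, and a gene with 4 or more signals there was given no fold.

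Genes described were, in complexes I, III, IV and V, the 4 with the smallest unadjusted p and the 2 extremes of the difference, all of complex II, CYCS, the isoform pairs, and up to 3 genes by p of each other pathway list. Genes outside this rule are named as such where they appear, and further members are given by their difference alone. The members and lists were chosen with earlier results of these data known. Alternatives were quantile and cyclic loess normalization, median centring, an offset of 16, array weights, a filter on dim probe sets, the methods' t-test, the replicate number as a block, eBayes without a trend, other choices of probe set, structural subunits alone, the adjusted p without the fold, and leaving out each array. Same-numbered arrays did not deviate together (correlations of -0.01, 0.02 and -0.06), so the numbers were not taken as pairs. The fit was tested on simulated data. Python 3.11.15, pandas 2.3.3, scipy 1.17.1 and matplotlib 3.10.9 were used. Promoter and protein sequences were not used here.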

Additional observations from a re-analysis of the deposited data

How the results depend on the processing

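No member passed the threshold under any alternative, and 6 arrays limit every comparison. Of 36 genes followed, 20 kept their sign under every alternative run for them, 15 to 18 for each gene, and 32 did so with each array left out. Quantile and cyclic loess normalization moved the median of all probe sets from -0.10 to -0.0039 and -0.00088, and median centring moved it to 0.13, a shift of 0.23. The causes were not tested. Counts of members under the alternatives below are given without their share over all probe sets.

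With quantile normalization the median was -0.13 over all members, -0.22 for complex I, -0.12 for complex II, -0.12 for complex III, -0.10 for complex IV and -0.096 for complex V. By unadjusted p 0 members were higher and 7 lower, and all Dox arrays lay above PBS for 2 members and below for 20. The reversed genes were SDHB at -0.043, SDHA at -0.12, COX7A1 at -0.043, NDUFA4 at -0.13, COX6C at -0.11, COX7A2 at -0.21, ATP5E at -0.030, ATP5G3 at -0.10, ATP5G1 at -0.23, ATP5F1 at -0.26 and NDUFA11 at -0.094.

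With cyclic loess normalization it was -0.081 over all members, -0.21 for complex I, -0.076 for complex II, -0.11 for complex III, -0.062 for complex IV and -0.061 for complex V. By unadjusted p 0 members were higher and 8 lower, and all Dox arrays lay above PBS for 3 and below for 14. The reversed genes were SDHA at -0.070, NDUFA4 at -0.073, COX6C at -0.083, COX7A2 at -0.17, ATP5G3 at -0.049, ATP5G1 at -0.20, ATP5F1 at -0.22 and NDUFA11 at -0.067.

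With median centring it was 0.31 over all members, 0.18 for complex I, 0.29 for complex II, 0.30 for complex III, 0.39 for complex IV and 0.41 for complex V. By unadjusted p 12 members were higher, and all Dox arrays lay above PBS for 35 and below for 1. The reversed genes were SDHC at 0.21, UQCR10 at 0.11, CYCS at 0.21, NDUFV1 at 0.13 and NDUFV2 at 0.015.

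By unadjusted p, 4 members were higher without dim probe sets, 0 with eBayes without a trend, and 1 with the replicate block, which changed no call and no median. Array weights gave 1 higher and 2 lower and medians of 0.013 over all members, -0.055 for complex II, 0.057 for complex IV and 0.072 for complex V, with COX7A2 at -0.0032, ATP5G1 at -0.032, ATP5F1 at -0.029 and CYCS at 0.0064. The methods' t-test gave 3 higher and 2 lower. Averaging all probe sets of a gene gave 4 higher and 2 lower and 8 members with all Dox arrays below PBS, with SDHB at -0.071 and SDHA at -0.012.

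With each array left out in turn, 0 to 1 members were higher and 0 to 5 lower by unadjusted p, and all Dox arrays lay above PBS for 10 to 24 members and below for 4 to 17. Leaving out an array can only keep or raise the counts of groups without overlap. The differences that crossed 0 ran from -0.12 to 0.094 for SDHC, from -0.0062 to 0.072 for COX7A2, from -0.037 to 0.066 for ATP5F1 and from -0.47 to 0.28 for CYCS. Medians by complex also crossed 0. The complex I median was -0.05 with all arrays and 0.02 without Dox 2. The complex II median was 0.05 with all arrays and -0.01 without PBS 1. The complex III median was 0.07 with all arrays and -0.02 without Dox 1. The other results kept their sign or moved by less than the spread between arrays.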
